A study of Mus musculus with 13 samples.

Results

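Natural killer (NK) cells of the mouse liver were selected from single-cell transcriptomes by a rule on measured transcripts. A barcode with at least 1500 unique molecular identifiers (UMIs, counts of captured mRNA molecules) entered the NK gate when it held at least 2 UMIs of Ncr1 and Klrb1c together. These genes encode the activating receptors NKp46 and NK1.1. A barcode with a UMI of Cd3e, Cd3d (T cell receptor complex), Cd79a (B cells) or Siglech (plasmacytoid dendritic cells) was left out, as was any with a UMI of Cxcr6, Itga1 or Cd200r1, which mark liver type 1 innate lymphoid cells (ILC1). The rule took 1033 of 95563 cells. These 9 genes chose the cells, so their levels in the gate are no result.

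Conventional NK cells are circulating, cytotoxic lymphocytes that mature in the bone marrow and depend on the transcription factor Eomes. They carry perforin and granzymes, secrete interferon gamma and chemokines, and read class I histocompatibility molecules through Ly49 receptors, which are encoded by the Klra genes. ILC1 are tissue-resident relatives that share NKp46 and NK1.1, lack Eomes and most Ly49 receptors, and are frequent in the liver.

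The libraries came from livers of male C57BL/6J mice of 6 to 12 weeks fed normal chow (D0) or chow with 0.1% DDC, a compound that injures the small bile ducts and causes cholangitis, for 3, 5, 9, 19 or 25 days. D0 was steady state, D3 and D5 onset, and D9, D19 and D25 progression. Each of these days had 1 library from isolation protocol A and 1 from protocol B, and a recovery library, STOP, was made with protocol B after 18 days of DDC and 7 days without it. How many animals went into a library was not given in the sources used here, so p-values measure the spread between libraries. Protocol A mixed, at equal ratios, live singlets with cells sorted for CD45, for Epcam, for Pdpn, for Lyve-1, for CD31 without Lyve-1 and for retinoid autofluorescence. Protocol B sorted live cells of a stellate cell preparation, CD45+ Itgax+ CD64- cells, Epcam+ cells and CD3e+ Lyve-1- cells, and used another index kit, so sort and kit cannot be told apart. The D19 library of protocol B was labelled day 18.

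Protocol A gave 111 NK-gate cells at D0, 26 at D3, 26 at D5, 27 at D9, 8 at D19 and 6 at D25. Protocol B gave 228, 3, 12, 31, 204 and 186 on the same days, and STOP gave 165. The libraries of at least 20 gate cells entered the tests, which left D0 A and D0 B for steady state, D3 A and D5 A for onset, and D9 A, D9 B, D19 B and D25 B for progression. Their summed UMIs over gate cells ran from 88737 (D9 A) to 1032726 (D19 B), and the median UMIs per gate cell over all libraries from 2088.5 (D0 B) to 5917 (D3 B). Libraries shared between 1 and 49 cell barcodes per pair, at most 0.519% of the smaller library, and no shared barcode was in the NK gate.

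The label of conventional NK cells was checked on Eomes, which was found in fewer gate cells of protocol B than of protocol A. A UMI of Eomes was found in 56.8% of the gate cells of D0 A, 61.5% of D3 A, 42.3% of D5 A, 11.1% of D9 A, 62.5% of D19 A and 33.3% of D25 A. In protocol B the shares were 13.2% at D0, 33.3% at D3 (1 of 3 cells), 8.33% at D5, 9.68% at D9, 9.31% at D19 and 8.60% at D25, and STOP had 9.09%. Protocol A was thus higher on 6 of 6 days, while D9 A lay within the range of protocol B. B cells gated on Cd79a were the background for free RNA. The later protocol B libraries and STOP held too few of them, so the background was not measured there. In the 7 libraries with at least 20 of them, those of protocol A and D0 B, they held Eomes in 0% of cells. Their median depths were 2351 to 4899 UMIs. At these depths a cell without an Eomes UMI is not shown to lack Eomes, and the label could not be settled for such cells. Gate cells were deeper at D19 B and D25 B (medians 4791.5 and 4845 UMIs) than at D0 A (2653), while those of D0 B were shallower (2088.5). With each cell thinned to 1500 UMIs, Eomes was found in 38.7% at D0 A. It was found in 10.1% at D0 B, 4.41% at D19 B and 5.91% at D25 B. Its thinned share was higher in protocol A on 6 of 6 days, although D9 A had 7.41%. The cause of this difference was not tested. The cells are called NK-gate cells below. Each of 12 NK markers had at least 1 UMI in every fitted library. Their summed level was 10070 to 24750 CPM (a gene's UMIs per 1000000 UMIs of the gate cells of a library) in protocol A and 4773 to 11510 in protocol B. Genes high in ILC1 that the rule had not used summed to 268 to 1735 CPM in protocol A and 2447 to 5239 in protocol B.

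**Figure D1:**
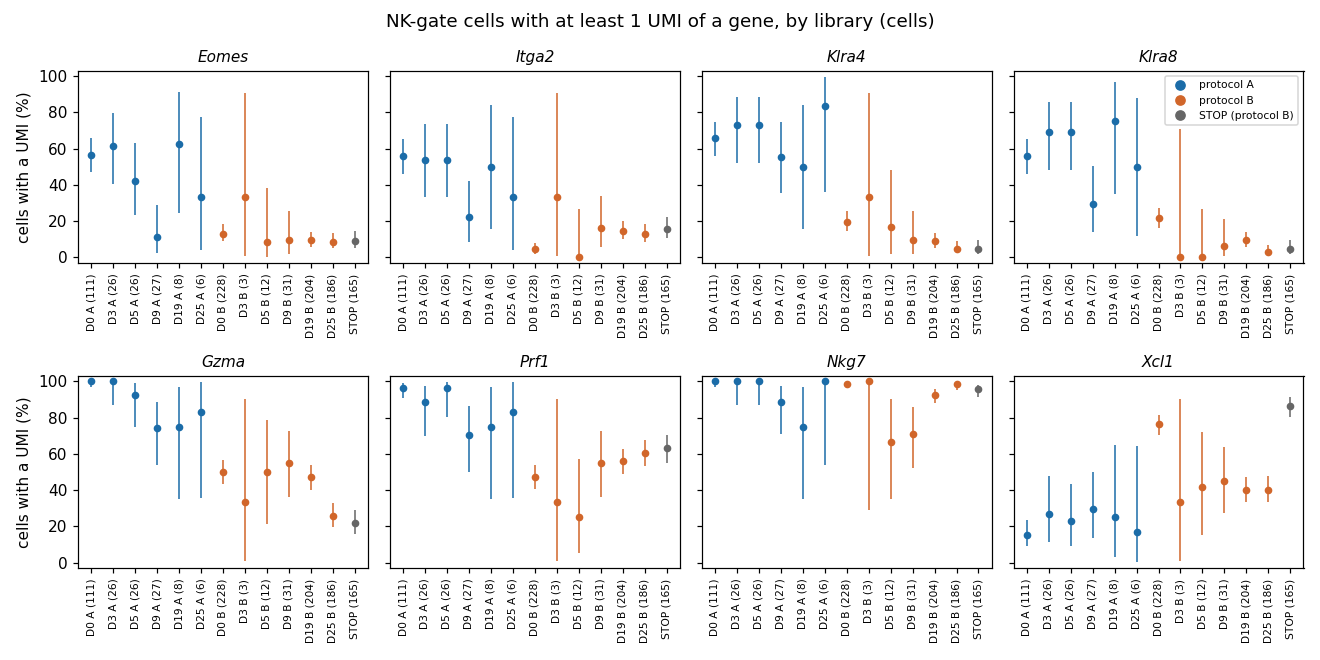
Percent of NK-gate cells in which a gene was detected (vertical axis) in each library (horizontal axis, number of gate cells in brackets), with exact binomial 95% intervals that cover counting error only. Protocol A (blue) lies above protocol B (orange) on each day for Eomes, Itga2, Klra4, Klra8, Gzma and Prf1, and below it for Xcl1, while Nkg7 is found in most cells of both.

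Gzma and Prf1 were found in more cells of protocol A on each day. Gzma, a granzyme transcript of NK cells, was found in 100% of gate cells at D0 A and D3 A, 92.3% at D5 A, 74.1% at D9 A, 75.0% at D19 A and 83.3% at D25 A. In protocol B it was found in 50.0%, 33.3%, 50.0%, 54.8%, 47.1% and 25.8% on those days and in 21.8% in STOP. Prf1, which encodes the pore-forming perforin, was found in 70.4% to 96.4% of cells in protocol A and 25.0% to 60.8% in protocol B, and the ranges did not overlap for either gene. In the B cells, again only of protocol A and D0 B, Gzma was found in at most 1.18% and Prf1 in at most 0.510% of cells. Gzmb, another granzyme, was found in 66.7% to 88.5% of cells in protocol A and 50.0% to 71.5% in protocol B, so its ranges overlapped. It was found in more cells than Gzma at D0 B (66.7%), D19 B (66.2%), D25 B (71.5%) and STOP (63.6%). Nkg7, a granule protein shared by NK cells and ILC1, was found in 75.0% to 100% of cells in protocol A and 66.7% to 100% in protocol B. The receptors Klrk1 (NKG2D) and Klrd1 (CD94) were likewise found in most cells of both protocols.

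Integrin alpha 2 (Itga2, CD49b), by which NK cells are told from ILC1 in mice, was found in 55.9% of cells at D0 A and 4.39% at D0 B. In the other days of protocol A its share was 22.2% to 53.9%, against 0% to 33.3% in protocol B. The chemokine Xcl1, which draws type 1 dendritic cells, went the other way. Its share was 15.3% at D0 A against 76.3% at D0 B and 16.7% to 29.6% in the later libraries of protocol A against 33.3% to 45.2% in protocol B, and STOP had 86.7%. With each cell thinned to 1500 UMIs, D0 B had 69.3% and STOP 61.8%. Cd27, a receptor of immature NK cells, was at or near 0 in every library, with a highest share of 7.69% (D3 A), so that the CD27 and CD11b stages of NK maturation could not be set apart at this depth.

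Over the 6 days, steady state included, the share of cells with a UMI was higher in protocol A on every day for 10 of 34 genes, namely Eomes, Gzma, Prf1, Itga2, Klre1, Klra1, Klra4, Klra7, Klra8 and Klra13-ps, and lower on every day for Xcl1. Each of these had p = 0.0313 in an exact two-sided sign-flip test over days, the smallest value that 6 days allow, and an adjusted p of 0.0966, so none passed the threshold of 0.05. The mean difference was 51.3 percentage points for Klra4, 44.0 for Gzma, 30.9 for Eomes and -23.4 for Xcl1. Cells of later protocol B libraries were deeper, so each cell was also thinned to 1500 UMIs. After thinning, Eomes, Gzma, Gzmb, Prf1, Klra4, Klra7, Klra8, Klre1 and Klri2 were higher in protocol A on 6 of 6 days and Xcl1 on 0 of 6, with an adjusted p of 0.106.

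Klra4, Klra7 and Klra8 of the Ly49 receptors were found in more cells of protocol A on each day. Klra4 (Ly49D, an activating receptor) was found in 65.8% of cells at D0 A, 73.1% at D3 A, 73.1% at D5 A, 55.6% at D9 A, 50.0% at D19 A and 83.3% at D25 A. In protocol B it was found in 19.7%, 33.3%, 16.7%, 9.68%, 8.82% and 4.84% of cells and in STOP in 4.85%, without overlap between the protocols. Klra8 (Ly49H, the activating receptor for a cytomegalovirus protein) was found in 29.6% to 75.0% of cells in protocol A and 0% to 21.5% in protocol B. Klra7 (Ly49G2) and Klra9 (Ly49I), both inhibitory, spanned 11.1% to 57.7% and 12.5% to 65.4% in protocol A, against 0% to 16.7% and 0% to 25.0% in protocol B. Klra5, Klra6, Klra10 and Klra17 were found in at most 7.69% of cells of any library.

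The start regions of Klra4 and Klra8 are shown because these 2 receptors had the largest mean differences between protocols. Start regions of other Ly49 genes were not compared, and a link between sequence and the protocol difference was not tested. Each line is the 250 bases before the annotated start of the gene in RefSeq, build GRCm38.p6, on the minus strand, read 5′ to 3′, and the capitals mark the longest run that the 2 regions have in common, 27 bases. Klra4 lies at chr6:130067272-130067521 and Klra8 at chr6:130129899-130130148.
Klra4: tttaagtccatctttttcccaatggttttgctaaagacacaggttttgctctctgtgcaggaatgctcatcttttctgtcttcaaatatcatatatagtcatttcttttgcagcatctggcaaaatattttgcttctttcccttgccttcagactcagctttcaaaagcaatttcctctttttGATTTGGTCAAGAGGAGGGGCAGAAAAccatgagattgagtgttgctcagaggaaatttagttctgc
Klra8: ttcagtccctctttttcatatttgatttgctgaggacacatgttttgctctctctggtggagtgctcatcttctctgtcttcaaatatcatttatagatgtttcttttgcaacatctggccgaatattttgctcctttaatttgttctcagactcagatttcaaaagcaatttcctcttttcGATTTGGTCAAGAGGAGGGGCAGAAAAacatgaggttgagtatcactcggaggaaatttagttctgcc

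How far the Ly49 genes can be told apart was measured on their GENCODE transcripts. Of all 31-base words, 13.9% of Klra4, 24.7% of Klra7, 55.0% of Klra8 and 57.8% of Klra9 also occurred in another Ly49 transcript. Values of single Ly49 genes are thus uncertain, more so for Klra8 and Klra9 than for Klra4.

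Inside protocol B, detection of Eomes went with the other NK transcripts cell by cell. At D0 B, 96.7% of the 30 cells with an Eomes UMI also held Gzma and 93.3% held a Ly49 transcript, against 42.9% and 38.4% of the 198 cells without one. At D19 B the shares were 68.4% and 94.7% of 19 cells against 44.9% and 27.0% of 185, and at D25 B 50.0% and 68.8% of 16 cells against 23.5% and 23.5% of 170. STOP had 73.3% and 73.3% of 15 cells against 16.7% and 14.0% of 150. At D0 A, both groups held Gzma and a Ly49 transcript in 100% of cells, 63 with and 48 without an Eomes UMI. At D0 B the median depth was 1983 UMIs in the cells with Eomes and 2095 in those without, and at D19 B 5619 and 4679. These are counts of cells within libraries and were not tested.

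**Figure D2:**
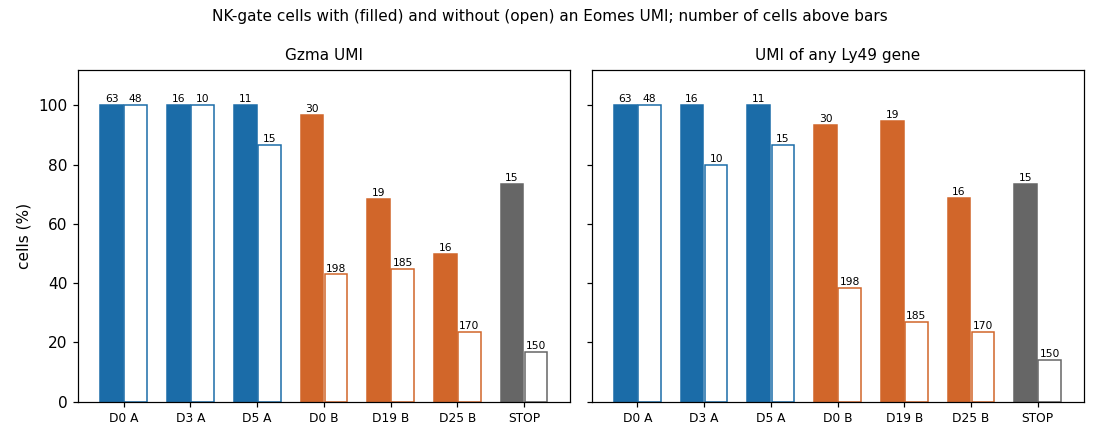
Share of NK-gate cells (vertical axis, percent) with a Gzma UMI (left) and with a UMI of any Ly49 gene (right), for cells with (filled bars) and without (open bars) an Eomes UMI, by library (horizontal axis), with cell numbers above the bars. At D0 A both kinds reach 100%, whereas at D0 B the cells without Eomes reach 42.9% for Gzma and 38.4% for Ly49.

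T cell receptor transcripts outside the rule were found in gate cells of both protocols, and their shares were not tested. Cd3g was found in 0.901% of cells at D0 A and 16.2% at D0 B, and in 0% to 11.5% of the later protocol A libraries against 0% to 58.3% in protocol B. Trac was found in 0.901% and 7.89% at D0 A and D0 B, and later in 0% to 23.1% in protocol A and 0% to 25.0% in protocol B. Trbc2, which innate lymphocytes can transcribe without a rearranged receptor, was found in 19.8% and 47.8% of cells at D0 A and D0 B. Cd74, a transcript of antigen-presenting cells, was found in 6.31% of cells at D0 A and 83.8% at D0 B. Their part in the protocol difference was not tested, apart from a fit without cells holding Cd3g or Trac, in which D5 A kept under 20 cells and dropped out. In that fit 4 genes passed the test between protocols, against 1 without D5 A alone.

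The threshold of the rule had cells on both sides. In protocol A, Eomes was found in 12.1% of the 91 cells with 1 UMI of Ncr1 and Klrb1c together, just outside, in 51.2% of the 43 cells with 2 and in 48.4% of the 161 cells with 3 or more. In protocol B, without STOP, the shares were 2.55% of 275, 14.3% of 105 and 9.84% of 559 cells. Gzma followed, with 27.5%, 88.4% and 95.7% in protocol A and 22.6%, 52.4% and 40.6% in protocol B.

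Whether gene levels differed between the protocols was tested on UMIs summed per library with edgeR's quasi-likelihood test, stage as a covariate and Benjamini-Hochberg adjustment over 5138 genes. Of these, 3 genes passed an adjusted p of 0.05 (0.0584% of the genes tested), each lower in protocol B, and 869 (16.9%) had an unadjusted p under 0.05. The 3 genes were Ehd3, an endocytic protein gene expressed by liver endothelium, S100a8, a neutrophil calprotectin gene, and Tm4sf4, a gene of biliary epithelium and hepatocytes. On the log2 scale they differed by -3.76 (SE 0.464), -5.83 (SE 0.834) and -3.57 (SE 0.520), with edgeR adjusted p of 0.0159, 0.0352 and 0.0442. None of these is a gene of the NK programme. Without D3 A 0 genes passed, without D5 A 1, and without D0 A or D19 B 2 each. Leaving out D25 B gave 10 genes, D9 A 15 and D9 B 54, and DESeq2 gave 82. The adjusted p of Ehd3 was 0.352 without D0 A, 0.0552 without D3 A and 0.0653 without D9 A, and that of S100a8 was 0.514 without D0 B and 0.0992 and 0.101 without D3 A and D5 A. That of Tm4sf4 was 0.0785 to 0.248 without D0 A, D0 B, D3 A, D5 A, D9 A or D19 B.

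The protocols were also compared with the day as a block, in the 10 libraries of at least 5 gate cells from the 5 days that then held both protocols, a fit chosen after seeing the data. It passed 62 of 4054 genes (1.53%), of which 35 (0.863%) were lower in protocol B. Of the 7 tested Ly49 genes 4 were among these, Klra4 (-2.79), Klra7, Klra8 (-2.95) and Klra13-ps, as were Eomes (-2.17, edgeR adjusted p = 0.0205), Prf1 (-1.90), Gzma (-1.60) and Itga2 (-2.56). Of 14 ILC1 genes outside the gate 5 were higher in protocol B, namely Il7r, Tmem176a, Tmem176b, Gzmc and Ltb, and Cd3g, a T cell gene, was higher too. Ehd3 and S100a8 passed again, whereas Tm4sf4 had -0.036. The added libraries D5 B, D19 A and D25 A held 12, 8 and 6 gate cells.

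Genes of NK maturation had lower values in protocol B throughout, without a member that passed the adjusted threshold. Of 13 tested mature NK genes, 13 had a negative log2 fold change, 11 had an unadjusted p under 0.05 (16.9% of all genes did), and the median was -1.88 beside 0.000627 over all genes. S1pr5, the receptor by which mature NK cells leave tissues, had 186 CPM at D0 A, 36.9 at D3 A, 64.3 at D5 A and 56.4 at D9 A, against 22.2 at D0 B, 0 at D9 B, 1.94 at D19 B and 2.01 at D25 B. Each protocol A library lay above each protocol B library, and the log2 fold change was -3.57 (SE 0.662, adjusted p = 0.0765). Itga2 had 368, 175, 248 and 101 CPM in the same protocol A libraries and 18.8, 30.6, 41.6 and 49.1 in protocol B, again without overlap, with -2.58 (SE 0.591, adjusted p = 0.106). Zeb2, a factor of terminal NK maturation, had -2.83 (SE 0.775), Klrg1, an inhibitory receptor of mature cells, -2.77 (SE 0.661), and the protease gene Cma1 -2.98 (SE 0.787). With a gate of at least 3 UMIs, which left D9 A out because only 14 of its cells remained, 10 of 14 tested mature NK genes passed as lower in protocol B, where 395 of 5858 genes (6.74%) did and 808 (13.8%) passed in either direction.

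Among the receptors and effectors, Klra4 had 1181 CPM at D0 A, 1347 at D3 A, 808 at D5 A and 744 at D9 A, against 260 at D0 B and 84.2 to 130 in the later protocol B libraries. The groups did not overlap, and the log2 fold change was -2.48 (SE 0.412, adjusted p = 0.0727). All 7 tested Ly49 genes had a negative value, 5 with an unadjusted p under 0.05 (16.9% of all genes), with a median of -1.36, and Klra8 had -1.999 (SE 0.572) and Klra9 -1.47 (SE 0.420). Of the 12 NK markers, 9 had a negative value and 5 an unadjusted p under 0.05, beside the same 16.9%, all of them lower: Prf1 (-1.67), Itga2, Gzma (-1.43), Eomes (-1.39) and Klre1 (-0.94). Tbx21 had -0.69, Klri2 -0.57, Txk -0.15, Nkg7 -0.14, Fcgr3 0.04, Klrk1 0.30 and Klrd1 0.30. Eomes passed with the gate of at least 3 UMIs, at -2.05 and an adjusted p of 0.0213, but its difference was -0.14 without D0 A and -0.12 without D0 B.

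Genes that are high in ILC1 and that the rule had not used had higher values in protocol B. All 14 tested members had a positive log2 fold change, 10 with an unadjusted p under 0.05 (16.9% of all genes), none below an adjusted 0.05, with a median of 1.96. Cxcr3, a chemokine receptor, had 15.8, 36.9, 45.9 and 11.3 CPM in D0 A, D3 A, D5 A and D9 A, against 162 at D0 B and 34.9 to 93.2 later, and differed by 3.38 on the log2 scale (SE 0.675, adjusted p = 0.0765). Tmem176a had 2.91 (SE 0.654), Il7r, the interleukin 7 receptor, 2.87 (SE 0.660) and the granzyme Gzmc 4.45 (SE 1.09). With the gate of at least 3 UMIs, 11 of 14 passed as higher, where 413 of 5858 genes (7.05%) did. Cd226 (DNAM-1), an activating receptor, had 46.1 to 67.6 CPM in protocol A and 201 to 295 in protocol B, and 2.07 (SE 0.429, adjusted p = 0.0917). Cd160, a checkpoint receptor found on ILC1, had 3.73 (SE 0.842, adjusted p = 0.106).

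Other lists were compared between the protocols in the same fit. Of 9 tested cytokines and chemokines, 8 were positive and 5 had an unadjusted p under 0.05 (16.9% of all genes), led by Tnf (3.95) and Csf2 (5.41), and of 9 immature NK genes 4 were higher at that level. Socs1 and Socs2, feedback inhibitors of JAK-STAT signalling, had 3.16 and 1.97, and Il6st, the gp130 receptor, -3.41. Hspa1b and Hsph1, inducible heat shock genes, had -4.09 and -2.19 (adjusted p = 0.0727 and 0.0765), with D0 A at 2142 CPM of Hspa1b. The list medians were -0.07 over 17 cytotoxic effectors, 0.69 over 17 cell cycle genes, with Dut at 3.25, and 0.63 over 19 genes of class I presentation, with Psmb9 at 1.41. Further leading genes of the lists were Nfkbia (1.53), Bcl2a1b (2.02), Ran (1.70), Ranbp1 (1.73), Isg15 (2.87), Bst2 (1.41), Aldoa (1.36), Prdx6 (1.47), Smc2 (1.52), Ctla4 (2.38), Klrb1f (0.97) and Pdia3 (1.19) on the positive side. On the negative side they were Pfkp (-1.78), Gclc (-1.74), Maf (-1.62), Syk (-1.52), Iigp1 (-0.71) and Gbp7 (-0.52). None of these passed the adjusted threshold.

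Transcripts of other cell types also differed between the protocols in the gate. All 6 tested sinusoidal endothelial markers were lower in protocol B at an unadjusted p under 0.05 (16.9% of all genes), with a median of -3.66 and summed levels of 138 to 1014 CPM in protocol A and 33.1 to 308 in protocol B. Dendritic cell markers summed to 116 to 10230 CPM in protocol A and 3618 to 16540 in protocol B, T cell markers to 583 to 886 and 1031 to 1768, and neutrophil markers to 9.18 to 1729 and 16.04 to 39.3. ILC2 and ILC3 markers summed to at most 1.71 CPM. Their part in the protocol difference was not tested.

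**Figure D3:**
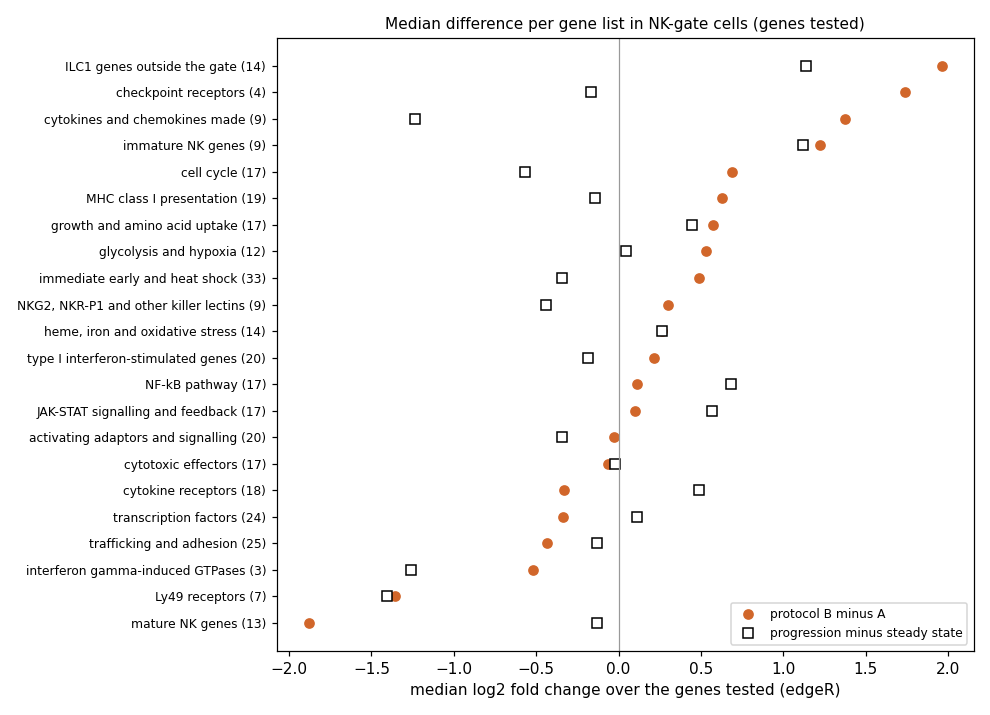
Median log2 fold change of each pathway list in NK-gate cells (horizontal axis, edgeR) between protocols (filled circles) and between progression and steady state (open squares), with the number of genes tested in brackets. Among these lists, markers of other cell types left out, mature NK genes and Ly49 receptors lie lowest for protocol B, at -1.88 and -1.36, and ILC1 genes outside the gate highest, at 1.96.

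Levels over the course of the diet were compared in the same fit with protocol as a covariate. Progression against steady state gave 0 genes at an adjusted p under 0.05 in edgeR (0.0% of 5138), 604 at an unadjusted p under 0.05 (11.8%), and 32 in DESeq2. The count depended on single libraries: without D0 A it was 25, without D9 A 22, without D9 B 8, without D19 B 7 and without D25 B 1. With the gate of at least 3 UMIs, which left D9 A out, 501 genes passed (8.55%). The lowest p-values belonged to Klf2, Il2ra and 3 genes of bile duct epithelium, Tm4sf4, Krt19 and Clu, each with an adjusted p of 0.0999.

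In the fitted libraries Klf2, a factor that keeps lymphocytes quiescent, was high in steady state and onset and low in progression. It had 1323 CPM at D0 A and 1636 at D0 B, 1107 at D3 A and 799 at D5 A, and 349, 271, 111 and 129 at D9 A, D9 B, D19 B and D25 B. Each fitted progression library lay below each earlier fitted one, in both protocols, and STOP had 231. Libraries outside the fit, of 3 to 12 gate cells, did not keep to this pattern in the share of cells with Klf2. At onset it was 33.3% at D3 B and 41.7% at D5 B, and in progression 50.0% at D19 A and 66.7% at D25 A. The fitted progression libraries had 24.0% to 44.4%, D0 A 78.4% and D0 B 65.4%. The log2 fold change was -2.81 (SE 0.482) against steady state and -2.04 (SE 0.640, adjusted p = 0.451) against onset. Within protocol A alone, 1 library against 1, the difference was -1.62, and within protocol B -3.49, both given with no test. Without D0 A it was -3.55 (adjusted p = 0.0202) and without D0 B -1.69 (adjusted p = 0.742), and the lone steady-state library was assumed to vary like those of the other groups. With the gate of at least 3 UMIs Klf2 passed at -3.24 and an adjusted p of 0.000238.

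Il2ra (CD25), the high-affinity interleukin 2 receptor chain, had 0 UMIs at D0 A and D3 A, 5.13 CPM at D0 B and 64.3 at D5 A. In D9 A, D9 B, D19 B and D25 B it had 56.4, 135, 189 and 148, and in STOP 76.4. The fitted progression libraries lay above both steady-state libraries, and the fitted log2 fold change was 5.06 (SE 0.885). Cells that met the same rule but held a UMI of Cxcr6, Itga1 or Cd200r1 (ILC1-like cells) also held Il2ra more often in progression. Its share of them was 0% and 3.08% at D0 A and D0 B, and 12.5%, 30.1%, 32.2% and 34.15% in D9 A, D9 B, D19 B and D25 B. Rora, a nuclear receptor of tissue-resident innate lymphocytes, had 31.5 and 73.5 CPM in steady state, 0 and 36.7 at onset and 248, 232, 297 and 623 in progression, with 2.57 (SE 0.608, adjusted p = 0.254). Odc1, the first enzyme of polyamine synthesis, had 53.5 and 82.1 CPM in steady state and 462, 397, 327 and 802 in progression, with 2.81 (SE 0.509, adjusted p = 0.109). In these 2 genes the steady-state and fitted progression libraries did not overlap either. The progression libraries D19 A and D25 A, of 8 and 6 gate cells and outside the fit, held Il2ra and Rora in 0% of cells. Il2ra and Rora had the lowest p of the 14 tested ILC1 genes outside the gate. Of these, 12 had a positive value in progression against steady state, with a median of 1.14. At an unadjusted p under 0.05 (11.8% of all genes), 5 were higher and 1 lower, and none passed the adjusted threshold.

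Ifng, the signature cytokine of NK cells and ILC1, had 529 and 1041 CPM in steady state, 443 and 523 at onset and 158, 210, 337 and 149 in progression. Each progression library lay below each earlier one, with -2.03 (SE 0.390, adjusted p = 0.138) against steady state. The chemokine Ccl4 had 1814 CPM at D0 A and 9128 at D0 B, 3525 and 4334 at onset and 1149, 1179, 3050 and 1909 in progression, where the groups overlapped. Its value was -1.62 (SE 0.465, adjusted p = 0.340), and Ccl3, a related chemokine, had -2.49 (SE 0.539, adjusted p = 0.451) between progression and onset. Of 9 tested cytokines and chemokines, 5 were lower at an unadjusted p under 0.05 (11.8% of all genes) in progression than in steady state, none passed the adjusted threshold, and the median was -1.24 beside 0.06 over all genes.

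Xcl1 and Psmb8 did not have 1 direction over the diet. Xcl1 had 101 CPM at D0 A and 1629 at D0 B, 175 and 220 at onset and 214, 275, 133 and 122 in progression, so that only D0 B stood above the rest. Its log2 fold change of -2.13 (SE 0.737, adjusted p = 0.363) became 1.31 without D0 B and 1.38 within protocol A. Psmb8, an immunoproteasome subunit, had 104 and 723 CPM in steady state and 67.2 to 169 in progression, and -1.87 (SE 0.635) became 0.93 without D0 B. Between protocols, Xcl1 had 1.36 (SE 0.899), which became -0.41 without D0 A and -0.40 without D0 B, although its share of cells was higher in protocol B on every day.

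**Figure D4:**
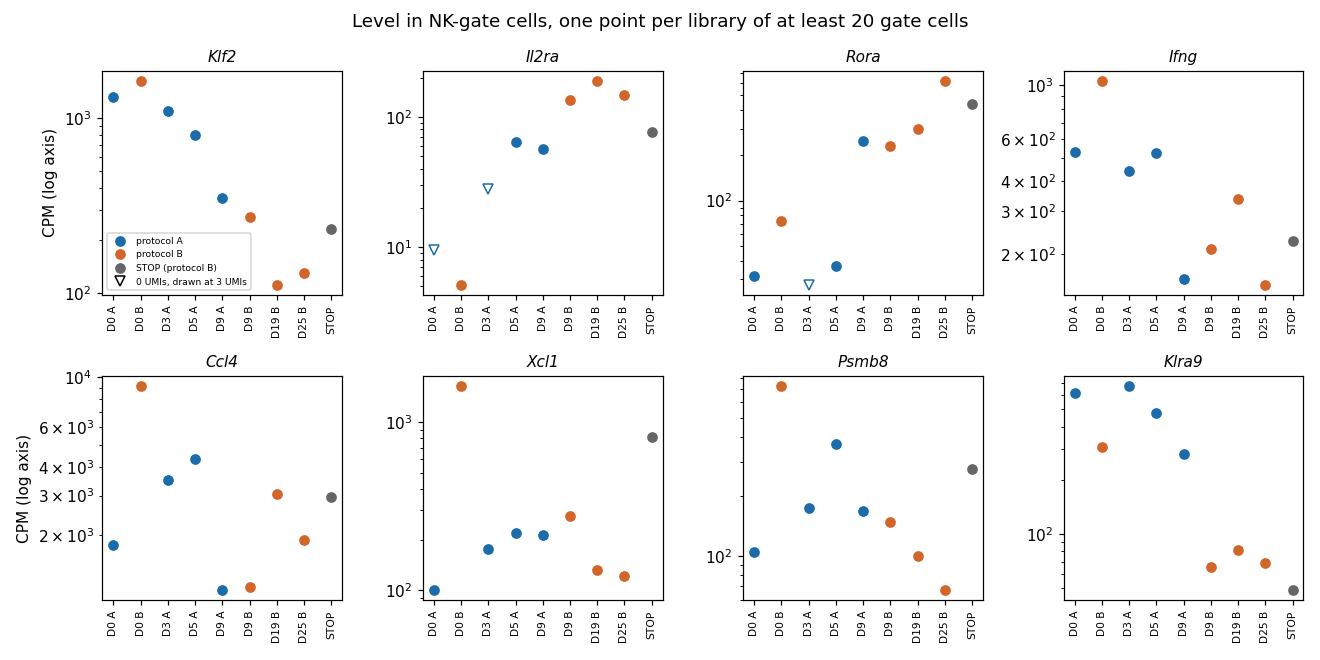
Level of 8 genes in NK-gate cells (vertical axis, CPM, log axis), 1 point per library with at least 20 gate cells (horizontal axis), coloured by protocol, with open triangles at the level of 3 UMIs where a library had 0. Klf2 and Ifng lie lower and Rora lies higher in each of the 4 progression libraries shown than in each earlier library shown. D0 B alone is high for Xcl1 and Psmb8.

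In the fitted libraries, Ly49 receptors had lower values in progression throughout the list. All 7 tested genes had a negative log2 fold change and an unadjusted p under 0.05 against steady state (11.8% of all genes did), with a median of -1.41, but none passed the adjusted threshold. Klra9 had 620 CPM at D0 A and 308 at D0 B, 674 and 478 at onset and 282, 65.5, 81.3 and 69.2 in progression. Within each protocol the fitted progression libraries lay below the earlier fitted ones, and the value was -1.73 (SE 0.395, adjusted p = 0.224). It was -2.25 within protocol B, -0.91 without D0 B and -0.06 in cells of at least 3000 UMIs. Klra7 had -2.003 (SE 0.504, adjusted p = 0.278), which became 1.17 in cells of at least 3000 UMIs. The progression libraries D19 A and D25 A, of 8 and 6 gate cells and outside the fit, had shares on both sides of D0 A. Klra8 was found in 75.0% of cells at D19 A and Klra4 in 83.3% at D25 A, against 55.9% and 65.8% at D0 A. Klra9 was found in 12.5% at D19 A and 16.7% at D25 A, against 55.9% at D0 A. At onset the Ly49 list had a median of -0.12 with 0 of 7 genes below an unadjusted 0.05 (4.52% of all genes), and between progression and onset 4 of 7 were below it (10.3% of all genes), with a median of -1.51.

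Of the NK markers, 11 of 12 had a negative value in progression against steady state, 4 with an unadjusted p under 0.05 (11.8% of all genes), with a median of -0.63. These 4 were Klre1 (-1.50, SE 0.417), Eomes (-1.87, SE 0.544), Nkg7 (-1.28, SE 0.425) and Gzma (-1.26, SE 0.474), all with an adjusted p above 0.3. Eomes had 387 and 71.8 CPM in steady state and 33.8, 17.5, 41.6 and 31.1 in the fitted progression libraries, without overlap, although in cells of at least 3000 UMIs its value was 0.16. The progression libraries D19 A and D25 A, of 8 and 6 gate cells, were outside the fit. They held Eomes in 62.5% and 33.3% of cells, against 56.8% at D0 A and 13.2% at D0 B. Prf1 had -0.76, Klrd1 -0.97, Klrk1 -0.51, Klri2 -0.44, Tbx21 -0.24, Txk -0.18, Itga2 -0.13 and Fcgr3 1.46. Cma1 (-3.78, SE 0.711, adjusted p = 0.129) and S1pr5 (-2.62, SE 0.616) led the mature NK genes, of which 3 of 13 were lower at an unadjusted p under 0.05, beside the same 11.8%, and whose median was -0.13. Klrg1 had -2.45 (SE 0.598).

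Other leading genes of the lists lay on both sides in progression. The immature NK genes Itgav, integrin alpha V, and Emb, the adhesion molecule embigin, had log2 fold changes of 2.51 (SE 0.633) and 2.09 (SE 0.534), and Il7r had 1.75 (SE 0.567). Of 17 tested NF-kB genes, 5 were higher and 0 lower at an unadjusted p under 0.05 (11.8% of all genes passed it in either direction), with Rel at 1.31 and Nfkb2 at 1.35 and a median of 0.68, while Jak2 had 1.31, Stat3 1.44 and Ifnar1 1.503. Heme oxygenase (Hmox1) and Gclc, genes of the heme and oxidative stress list, had 4.60 (SE 1.33) and 1.83, and Ctla4 had 1.47. On the lower side, 10 of 33 immediate early and heat shock genes had an unadjusted p under 0.05 (beside the same 11.8%), led by Dnajb1 (-2.63, SE 0.535, adjusted p = 0.145) and Hsph1 (-1.62). Others were Nme1 (-2.13), Irf7 (-1.65), Isg15 (-1.29), Psme2 (-1.29), Pgam1 (-1.28), Aldoa (-0.84), Sh2d1a (-1.36), Cd2 (-1.05), Stmn1 (-1.70), Mcm4 (-0.87), Iigp1 (-1.76), Gbp8 (-1.26) and Entpd1 (-0.60). None of these passed the adjusted threshold, and Irf7 became 0.33 without D0 B.

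All 6 tested cholangiocyte markers had higher values in progression at an unadjusted p under 0.05 (11.8% of all genes), with a median of 5.31. Their summed level was 66.7 to 132 CPM in steady state, 0 to 9.23 at onset and 287 to 1633 in progression. Kupffer cell markers summed to 158 to 224, 45.9 to 64.6 and 110 to 5053 CPM over the same stages, with 4 of 5 tested higher at that level. Krt19 had 0 UMIs in both steady-state libraries and 248, 21.8, 19.4 and 47.1 CPM in progression. The share of these transcripts in the other differences was not tested, and the fit without cells that held 3 or more UMIs of other-lineage markers could not be made because too few cells remained.

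Onset against steady state gave 0 genes at an adjusted p under 0.05 in edgeR (0.0%), 232 at an unadjusted p under 0.05 (4.52%) and 2 in DESeq2, and progression against onset gave 0, 527 (10.3%) and 6. Onset rested on 2 protocol A libraries of 26 cells each. Its lowest p-values belonged to Ehd3 (-5.63), S100a8 (-5.83), Hsph1 (-2.51), the stress-induced gene Gadd45b (1.87) and the mitochondrial ribosomal RNA mt-Rnr1 (3.97), with adjusted p of 0.109, 0.109, 0.763, 1.0 and 1.0. Among ILC1 genes Gzmc and Il2ra had 4.72 and 4.39, and S1pr5 had -1.999. Il2ra became -2.51 without D5 A, and in the fit without cells holding Cd3g or Trac, which also lost D5 A, Gzmc became -5.133 and Il2ra -1.486. All 9 tested immature NK genes were positive at onset, with a median of 1.24 and 2 below an unadjusted 0.05 (4.52% of all genes), Thy1 (1.77) and Kit (1.59). Markers of other cell types moved too. Of 6 tested sinusoidal endothelial markers, 4 were lower at that level (4.52% of all genes), with a median of -3.67. All 6 hepatocyte markers were negative (median -5.21) and all 5 dendritic cell markers positive (median 2.56). Their part in the onset differences was not tested. Between progression and onset the genes of lowest p were Tm4sf4 (10.6), Clu (9.13), Ehd3 (4.89), Krt19 (9.81) and the histone gene H3c6 (-5.86). In libraries of at least 5 cells Tm4sf4 and Clu turned to -0.614 and -1.082. Rora had 3.51 (SE 0.947) and Stat3 2.13 (SE 0.607) in that comparison, and the adjusted p of both was 0.451.

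Whether the NK-gate cells differed from other lymphocytes in their response was tested as the interaction of gate and stage in libraries that held both. Against T cells gated on Cd3e and Cd3d, 0 of 6381 genes passed in edgeR (0.0%), and DESeq2 gave 14. In edgeR 277 had an unadjusted p under 0.05, a share below the 0.05 that chance alone would give. Without D9 B, 20 genes passed, and without D25 B 1. The lowest p-values belonged to Gm36723, Il2ra, Cxcl9, Odc1 and mt-Nd6. Il2ra was 0 at D0 A, 5.13 at D0 B and 56.4 to 189 CPM in progression in the NK gate, against 66.2, 12.1 and 26.3 to 39.4 in T cells, and the difference of the log2 changes was 4.45 (SE 0.723, adjusted p = 0.265). That of Odc1 was 1.71 (SE 0.297, adjusted p = 0.265), of Cxcl9 -5.48, of Gm36723 2.63 and of mt-Nd6 1.33. Klf2, which had 849 CPM at D0 A, 2968 at D0 B and 488 to 844 in progression in T cells, had a difference of -1.20 (SE 0.316, adjusted p = 0.639).

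Against ILC1-like cells, which meet the same rule but hold a UMI of Cxcr6, Itga1 or Cd200r1, 2 of 8657 genes passed (0.0231%), Aqp1 and Dnase1l3. An unadjusted p under 0.05 was seen for 409 genes, again a share below 0.05. D3 A and D9 A held under 20 ILC1-like cells and were not in this fit. Aqp1, a water channel of liver endothelium and bile ducts, had 110 and 37.6 CPM in the NK gate at D0 A and D0 B and 259, 4.37, 0.968 and 1.002 in D9 A, D9 B, D19 B and D25 B. In ILC1-like cells it had 820 and 9.92, then 673, 223, 156 and 270, so the libraries of protocol B went opposite ways. The difference was -9.03 (SE 0.706, adjusted p = 0.0491). It rests on few UMIs, since 3 UMIs in the NK gate correspond to 13.1, 2.91 and 3.01 CPM at D9 B, D19 B and D25 B. All 3 values there lay below this level, and the ILC1-like sum of D0 B held only 201717 UMIs. Dnase1l3, a nuclease of sinusoidal endothelium, had 287 and 210 and then 293, 13.1, 4.84 and 8.02 CPM in the NK gate, against 258 to 1439 in the ILC1-like cells of the same libraries, and -5.45 (SE 0.455, adjusted p = 0.0491). Both genes are endothelial and neither is a gene of NK cells. Without D19 B 0 genes passed, and without D9 B 98. Eomes had a difference of -6.59 (SE 2.18, adjusted p = 0.964), which rests on few detections in ILC1-like cells. It was found in 39.4% of them at D0 A, 0% at D0 B and 2.41% to 3.48% in D9 B, D19 B and D25 B. Klf2, Ifng, Ccl4, Rora, Xcl1, Psmb8, Klra4 and Klra9 had differences between -0.92 and 0.34. Il2ra and the other Ly49 genes were not among these, and the range does not speak for them.

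The share of NK-gate cells among NK-gate and ILC1-like cells was lower in each library of the diet than at steady state. The gates differ by whether a UMI of Cxcr6, Itga1 or Cd200r1 was seen, so this share measures the detection of 3 gate genes that chose the cells, and it is given as a description with no test. It was 77.1% (95% interval 69.4 to 83.7) at D0 A and 77.8% (72.6 to 82.4) at D0 B. In protocol A it was 57.8% at D3, 48.1% at D5, 62.8% at D9, 61.5% at D19 and 37.5% at D25, and in protocol B 33.3%, 34.3%, 27.2%, 37.2% and 43.1%. STOP had 31.2%. The mean was 77.5% at steady state and 44.3% on the diet, a difference of -33.2 percentage points, or -23.5 within protocol A and -42.8 within protocol B.

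Depth moved with this share. The median depth of NK-gate cells was 2653 UMIs at D0 A and 2088.5 at D0 B, and 4791.5 and 4845 at D19 B and D25 B. After thinning every cell to 1500 UMIs before the gate, the shares were 91.8% and 85.8% at steady state, 59.1% to 100% on the diet and 63.0% in STOP. The difference was then -11.2 percentage points, with 7 of 10 diet libraries below both steady-state libraries. In cells of at least 3000 UMIs it was -26.95, with 10 of 10 below. Within protocol B the thinned shares were 85.8% at D0, 100% of 4 cells at D3, 80.0% at D5, 59.1% at D9, 64.0% at D19 and 66.0% at D25.

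**Figure D5:**
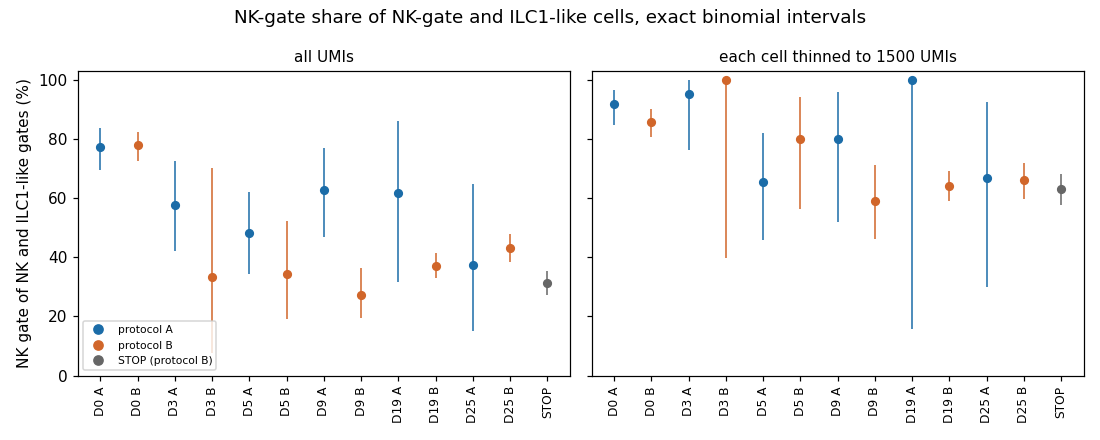
Share of NK-gate cells among NK-gate and ILC1-like cells (vertical axis, percent) in each library (horizontal axis), from all UMIs (left) and after thinning each cell to 1500 UMIs (right), with exact binomial 95% intervals. From all UMIs each diet library lies below 77.1%, whereas after thinning D3 A, D3 B and D19 A, of at most 21 cells each, lie above both steady-state libraries.

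NK-gate cells were 1.70% of all cells at D0 A and 3.26% at D0 B. On the diet they were 0.056% to 0.384% in protocol A and 0.160% to 3.11% in protocol B, with D19 B (2.90%) and D25 B (3.11%) between the steady-state values. The mean difference was -1.66 percentage points, but -0.065 in cells of at least 3000 UMIs and -0.88 without D0 B. This share too rests on the detection of gate genes and was not tested. Populations were sorted at set ratios, so sort and tissue cannot be told apart in this share.

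Recovery was seen in 1 library, STOP, set beside D19 B, which was prepared by the same protocol after a like time on DDC. With 1 library each there is no test and the intervals cover counting error only. Of 873 genes considered, 90 (10.3%) differed by at least 2-fold with separate intervals and at least 200 CPM in 1 library, 53 higher and 37 lower in STOP. Xcl1 stood at 815 CPM (756 to 878) in STOP and 133 (111 to 157) at D19 B, 6.14-fold higher, and Ccl1, another chemokine gene, at 248 and 46.5. In ILC1-like cells of the same libraries Xcl1 had 453 and 114 CPM, and in T cells 29.6 and 5.70.

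Klre1, an NK lectin receptor, stood at 590 CPM in STOP and 256 at D19 B, Klf2 at 231 and 111, and the immunoproteasome genes Psmb8 and Psmb9 at 277 and 99.7 and at 341 and 159. Each of these was higher in STOP and, in Klf2 and Psmb8, below D0 B. Stmn1, a gene of dividing cells, stood at 205 and 42.6 CPM, and the survival genes Bcl2a1b and Bcl2a1d at 315 and 106 and at 252 and 38.7. Gzma was lower in STOP, with 990 CPM (925 to 1058) against 3404 (3292 to 3518). However, D25 B, on the diet and of the same protocol, held Gzma in 25.8% of gate cells, against 21.8% in STOP and 47.1% at D19 B. Recovery and the spread between libraries thus cannot be told apart for Gzma. Also lower in STOP were the NF-kB inhibitor Tnfaip3 (491 against 1156), the adhesion molecule Icam1 (112.3 against 276) and the death effector Bcl2l11 (221 against 575). Many of the other genes encode ribosomal proteins or mitochondrial transcripts, such as mt-Rnr1 (2900 against 10110). Transcripts of other cell types were among those higher in STOP, with Spp1 at 784 against 191, Cst3 at 4304 against 1054 and S100a9 at 225 against 5.81 CPM. Fabp1, a hepatocyte gene, had 0 UMIs at D19 B and was at least 143.9-fold higher against a floor of 3 UMIs. Their part in the other differences was not tested.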

How the data were processed

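Single-cell UMI counts of 13 mouse liver libraries were used as the authors deposited them, as raw gene by barcode count matrices made with kallisto on GRCm38 according to the submitters' processing notes (versions not given in the sources used here), unfiltered at 630081 to 1700435 barcodes a library. Barcodes with at least 1500 UMIs were kept, and the gate was applied to raw counts. No doublet caller was run, and the gate left out barcodes with a UMI of Cd3e, Cd3d, Cd79a or Siglech but not those with other T or B cell transcripts. Gate counts were summed per library (at least 20 cells) and tested with edgeR 4.0.16 (glmQLFit, TMM, filterByExpr, Benjamini-Hochberg at 0.05, limma 3.58.1, R 4.3.3), checked on simulated data. The fit held stage and protocol, and the interactions held library as a block. The 9 gate genes were left out of calls. Shares of NK-gate cells were described with no test, since the gate genes set them (Python 3.11.15, scipy 1.17.1), and shares of gate cells with a UMI were compared between protocols by exact sign flips over days, a test chosen after seeing the data. Intervals are exact binomial or exact Poisson at 95%. CPM were computed from the deposited counts. Alternatives were DESeq2 1.42.0, no TMM, no filter, at least 3000 UMIs, at least 3 gate UMIs, leaving out each library, and, chosen after seeing the data, within protocol, without cells holding Cd3g or Trac, libraries of at least 5 cells, and the day as a block in these.

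Members and lists were chosen with earlier results of these data known. Genes were named by a rule: those called (up to 10 per direction), or the 5 of lowest p where none was called, every NK marker, and the 2 members of lowest p of each list, which in the comparisons with onset was kept to the lists described. For STOP against D19 B, genes were named among those of at least 2-fold difference, separate intervals and at least 200 CPM. Shares of cells with a UMI of Cd3g, Trbc2 and Cd74, and levels of genes listed for their role, such as Ccl3, Xcl1, Odc1 and Cd160, were added after their values were seen.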

Additional observations from a re-analysis of the deposited data

Results flagged for a closer look

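In the progression libraries, a gap test for groups of 4 to 10 libraries marked 12 of 57 groups of named values. The chance rate of about 1 in 20 does not apply to them, since many of these genes were named for differing between protocols. In 10 of the 12 the library that stood apart was D9 A, the only protocol A library of that group and the smallest of it in gate cells, so that protocol and library cannot be told apart there. D9 A was high for the receptors Klra4 (743.8 CPM, others 84.2 to 130), Klra9 (281.7, others 65.5 to 81.3), Klrg1 (78.88, others 3.01 to 4.84) and S1pr5 (56.35, others 0 to 2.01). It was also high for the heat shock genes Hspa1b (755.0, others 4.37 to 48.1) and Hsph1 (101.4, others 17.5 to 26.1). Genes of other cell types stood apart in it too, with Ehd3 at 169.0 (others 9.02 to 13.1), Tm4sf4 at 439.5 (others 19.4 to 48.1), Krt19 at 247.9 (others 19.4 to 47.1) and S100a8 at 45.08 (others 0 to 4.01). Nme1, a nucleotide kinase gene, was high in D9 B (74.24 CPM, others 21.3 to 22.5) and Rora in D25 B (623.4, others 232 to 297).

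The change from steady state to progression differed between NK-gate and ILC1-like cells for Aqp1 (-9.025 on the log2 scale) and Dnase1l3 (-5.447), by the edgeR test of the interaction. In the NK gate of D9 B, D19 B and D25 B, Aqp1 lay below the level of 3 UMIs.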

How the results depend on the processing

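Counts of genes past the threshold depended on the processing. For onset against steady state, progression against onset, progression against steady state and protocol B against A, in that order, DESeq2 gave 2, 6, 32 and 82 genes, no filter on low counts 26, 76, 154 and 172, and the gate of at least 3 UMIs 6, 276, 501 and 808. Cells of at least 3000 UMIs gave 2 and 0 genes for the last pair of comparisons, cells without Cd3g or Trac 3 for progression against steady state, and libraries of at least 5 cells 32 between protocols, or 62 with the day as a block. The stage comparisons gave 67, 56 and 66 genes within protocol A, and progression against steady state gave 2 within protocol B, but steady state (and within protocol A progression) was then 1 library, and the spread within protocol A came from the 2 onset libraries alone. For the interactions with T cells and ILC1-like cells, no filter gave 39 and 53 and the gate of at least 3 UMIs 52 and 31. With T cells DESeq2 gave 14 and libraries of at least 5 cells 1, and with ILC1-like cells edgeR without TMM gave 0 and cells without Cd3g or Trac 14. Leaving out each library gave 0 to 2, 0 to 3, 0 to 25 and 0 to 54 genes for the comparisons, 0 to 20 with T cells and 0 to 98 with ILC1-like cells, and without D0 A or D0 B steady state was again 1 library. The cause was not tested.

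The shares of NK-gate cells rest on the gate genes and are descriptions. The share of NK and ILC1-like cells differed by -35.2 to -31.3 points when each library was left out, -23.53 within protocol A, -42.81 within protocol B, -33.11 in libraries of at least 20 cells, -11.15 after thinning and -40.97 without cells holding other-lineage UMIs. The share of all cells differed by -2.441 (without D0 A) to -0.884 (without D0 B) when each library was left out, -1.483 within protocol A, -1.842 within protocol B, -0.065 in cells of at least 3000 UMIs, -1.264 with the gate of at least 3 UMIs, -1.308 after thinning, -1.458 without cells holding Cd3g or Trac and -0.497 without other-lineage cells.

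Of 78 gene values, leaving out each library kept direction and side in 548 refits, passed the threshold in 50, lost it in 12 and turned the sign in 6, and the other alternatives did so in 407, 193, 8 and 8. The sign turned between protocols for Xcl1 (-0.408 without D0 A, -0.395 without D0 B, range to 4.37 over libraries left out). Between progression and steady state it turned for Xcl1 (1.314 without D0 B, -3.489 without D0 A, 1.376 within protocol A), Psmb8 (0.930, -3.068 and 0.992) and Irf7 (0.331 without D0 B, -2.408 without D0 A), and in cells of at least 3000 UMIs for Klra7 (1.165) and Eomes (0.165). Between progression and onset it turned for Tm4sf4 (-0.614) and Clu (-1.082) in libraries of at least 5 cells, and at onset for Gzmc (-5.133) and Il2ra (-1.486) without cells holding Cd3g or Trac, a fit that also lost D5 A, and for Il2ra without D5 A (-2.51, against 6.968 without D9 A).

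The fits without other-lineage cells, the onset comparisons within protocol B or at 3000 UMIs, and the ILC1-like interaction without D0 A or D0 B or at 3000 UMIs could not be made with the libraries left. The labels give no replicate numbers. The day was a block between protocols in libraries of at least 5 cells, since only D0 and D9 held both protocols at 20, and no stage comparison could be paired by day because a day lies in 1 stage. D3 B, D5 B, D19 A and D25 A held 3 to 12 gate cells, too few for the fits of at least 20 cells. D5 B, D19 A and D25 A entered only the fits in libraries of at least 5 cells, and D3 B entered none.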
